A study of Mus musculus with 12 samples.

Results

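The lipid-associated macrophage marker genes are 10 genes, Gpnmb, Spp1, Trem2, Tyrobp, Fabp4, Fabp5, Lgals3, Cd9, Cd63 and Syngr1, taken by symbol from a table of 24728 genes. Each symbol matched 1 gene, and all 10 were among the 13414 genes with enough counts to be tested. They were followed across 12 RNA-seq libraries of mouse bone-marrow derived macrophages, sorted by their dTomato fluorescence after ex vivo assays with dissociated brain tumor. The groups were Full Tumor, Tumor without Myelin, Myelin Alone and Control, with 3 libraries each. In every group the libraries carry the mn numbers 957, 958 and 016, once each. The labels give no genotype beyond dTomato, no exposure time, no age, no meaning of mn, no tumor model for these assays and no account of what Control cells received. Separate animals are not stated for the libraries of a group, so the spread behind the p-values may be technical.

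Macrophages that take up large amounts of lipid, in adipose tissue, in atherosclerotic plaques and around damaged myelin, turn on a shared set of genes. The set is organised around TREM2, a surface receptor that binds lipids and lipoproteins and signals through its adaptor TYROBP (DAP12) and the kinase SYK. Other members carry fatty acids inside the cell (Fabp4 and Fabp5), are secreted (Spp1, which encodes osteopontin, and Lgals3, which encodes galectin-3), or sit in membranes of the endolysosomal system and the cell surface (Gpnmb, Cd63 and Cd9). Syngr1 encodes synaptogyrin-1, a vesicle membrane protein first known from synapses.

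The study asked about myelin taken up by macrophages in brain tumors, and the 4 groups separate the presence of myelin from that of the rest of the tumor. All 10 genes were expressed in every library, Control included, and together they took 3.01% to 3.75% of all counts of a library. None was called in any comparison between groups at an adjusted p under 0.05 in edgeR's quasi-likelihood test. Libraries of the same mn number deviated together, so each comparison was also fitted with the mn number as a block, and again 0 of 10 were called. Over all tested genes the block gave calls for 0.813% in Full Tumor over Control and 0.745% in Tumor without Myelin over Control. Calls came to 0.0373% in Myelin Alone over Control and 0.112% in Full Tumor over Myelin Alone. The comparison of Full Tumor over Tumor without Myelin gave 0%, so no gene at all passed there. A test over the 4 groups gave 0.999%, and group only gave 0% in each of these. Within the numbers, 5 members differed in the same direction in 6 of 6 matched pairs. Fabp4, Fabp5 and Syngr1 were higher with myelin than without it, as were 3.07% of all tested genes. Spp1 was higher with tumor material than without it, as were 4.19% of genes, and Cd9 was lower with tumor material, as were 3.01%.

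The upstream sequences of Gpnmb, which alone took 1.19% to 1.88% of all counts, of Trem2, and of Spp1 and Cd9, the pair with a call on the average over tumor material described further on, show what lies before these genes. They are from RefSeq on GRCm38.p6, the assembly that mm10 names, and run from 250 bases before the RefSeq start site up to it. That of Gpnmb runs on to the end of a match after the start site. Capitals mark matches to motifs of factors known to act on macrophage genes. The Gpnmb stretch is chr6:49036268-49036532 on the plus strand, with capitals on an AP-1 match that begins 8 bases after the start site. The Trem2 stretch is chr17:48346151-48346400 on the plus strand, with an AP-1 match 9 bases before the start site. The Spp1 stretch is chr5:104434861-104435110 on the plus strand, with a PU.1 match 113 bases before the start site. The Cd9 stretch is chr6:125494761-125495010 on the minus strand and holds no match.
Gpnmb: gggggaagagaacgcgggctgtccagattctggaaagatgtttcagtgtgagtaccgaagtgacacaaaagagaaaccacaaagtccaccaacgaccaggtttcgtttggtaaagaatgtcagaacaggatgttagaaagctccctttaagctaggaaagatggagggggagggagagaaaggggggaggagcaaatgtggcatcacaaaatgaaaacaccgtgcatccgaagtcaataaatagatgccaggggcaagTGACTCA
Trem2: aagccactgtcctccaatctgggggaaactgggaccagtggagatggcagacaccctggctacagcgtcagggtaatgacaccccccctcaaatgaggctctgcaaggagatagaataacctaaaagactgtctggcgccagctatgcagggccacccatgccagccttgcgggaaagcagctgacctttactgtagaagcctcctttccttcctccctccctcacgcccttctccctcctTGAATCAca
Spp1: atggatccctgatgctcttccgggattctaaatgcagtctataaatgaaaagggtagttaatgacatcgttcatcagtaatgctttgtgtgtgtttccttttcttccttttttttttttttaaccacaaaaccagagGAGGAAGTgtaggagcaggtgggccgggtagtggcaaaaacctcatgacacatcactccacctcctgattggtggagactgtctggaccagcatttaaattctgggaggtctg
Cd9: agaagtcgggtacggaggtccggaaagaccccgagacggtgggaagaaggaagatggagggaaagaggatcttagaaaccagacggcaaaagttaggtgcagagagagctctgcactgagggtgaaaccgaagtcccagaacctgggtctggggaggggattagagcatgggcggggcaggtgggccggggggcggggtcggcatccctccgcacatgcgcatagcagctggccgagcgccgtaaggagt

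Promoters of 300 bases, 250 before and 50 after the start site, were in the reference table for 7 of the 10 genes, 8 promoters in all. Fabp4, Fabp5 and Tyrobp had no entry there, so they were not searched for any motif. Both strands were searched, and no motif searched contains another. The AP-1 letters TGANTCA were searched with any base at N, which is looser than a fixed middle base. They were in promoters of Gpnmb (as TGACTCA) and Trem2 (as TGAATCA) and in 7.81% of all 32851 promoters. The PU.1 letters GAGGAAGT were in 1 of the promoters of Spp1 and in 3.2% of all. The M-box letters TCATGTG, read by MITF, were in 3.77% of all promoters, the E-box letters CACGTG in 7.15% and the DR1 motif, read by PPARγ with RXR, in 0.0396%. None of these last was in a promoter of the 7 genes. A match of letters is a description and not a binding site, and a missing match says only that these letters are not in this window.

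Scaled to transcript length, as CPM (a gene's count relative to the scaled library total) per kilobase of the principal transcript, Lgals3 and Gpnmb stood highest, with medians over the 12 libraries of 4794 and 4379. They ranked 3 to 6 and 4 to 8 among the 14943 genes with an annotated principal transcript. Spp1 followed at 2499, Tyrobp at 2398, Cd63 at 1878, Trem2 at 1835 and Cd9 at 1005. Fabp5 at 357, Fabp4 at 166 and Syngr1 at 130 lay far below. Neighbours in this order overlapped over the libraries, except that all libraries had more Trem2 (1307 or more) than any had Cd9 (1233 or less), and more Cd9 (848 or more) than any had Fabp5 (496 or less).

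**Figure D1:**
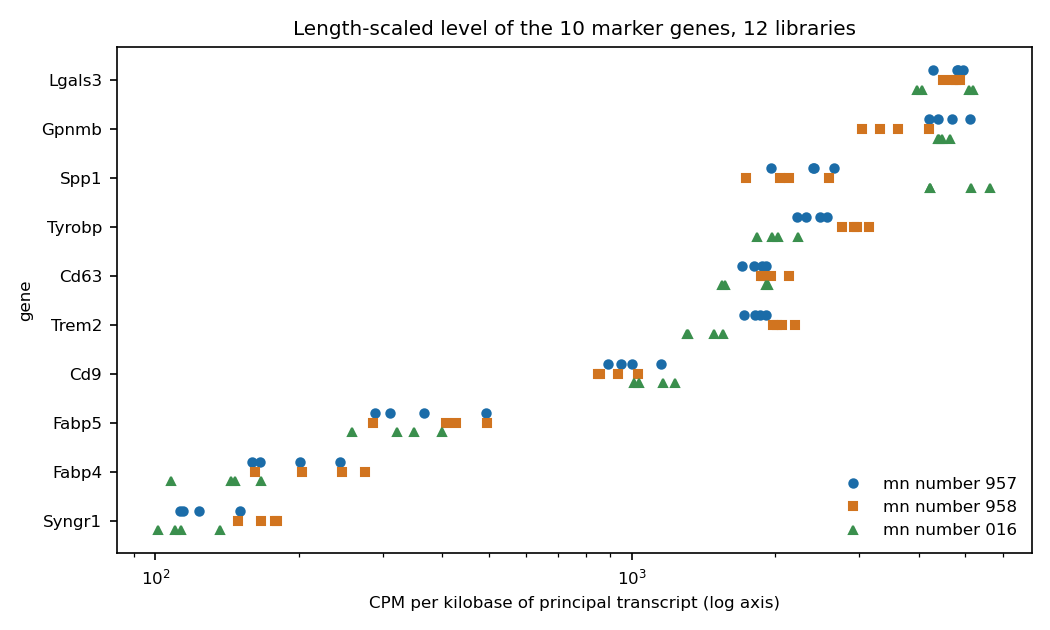
CPM per kilobase of the principal transcript (log axis) for the 10 genes, 1 point a library, with symbols for the 3 mn numbers. Lgals3 and Gpnmb lead with medians of 4794 and 4379, Syngr1 is lowest at 130, and the libraries of number 016 lie apart from the others for Spp1.

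The sorted cells carried macrophage transcripts throughout. All 10 macrophage markers (Adgre1, Csf1r, Cd68, Itgam, Mertk, Fcgr1, Lyz2, Cd14, Mrc1 and Aif1) were present, with summed levels of 15016 to 17659 CPM in Full Tumor, 16602 to 18371 in Tumor without Myelin, 13335 to 15573 in Myelin Alone and 13389 to 15418 in Control. The sum over 10 of 11 listed microglia markers was 739 to 983 CPM in Full Tumor, 839 to 1146 in Tumor without Myelin, 661 to 687 in Myelin Alone and 417 to 655 in Control. The other one, Sall1, was not analysed here. The 7 of 10 listed oligodendrocyte markers used here summed to 111 to 161 CPM over all libraries, most of it Mbp and Cnp. Of 5 adipocyte markers, of interest because Fabp4 is best known from fat cells, only Adipoq was analysed here, and it was at 0 counts in all libraries but 1, where it reached 0.444 CPM. Totals were 17071673 to 21689624 counts a library, which put the floor of 3 counts at 0.142 to 0.182 CPM, below every value of the 10 genes.

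**Figure D2:**
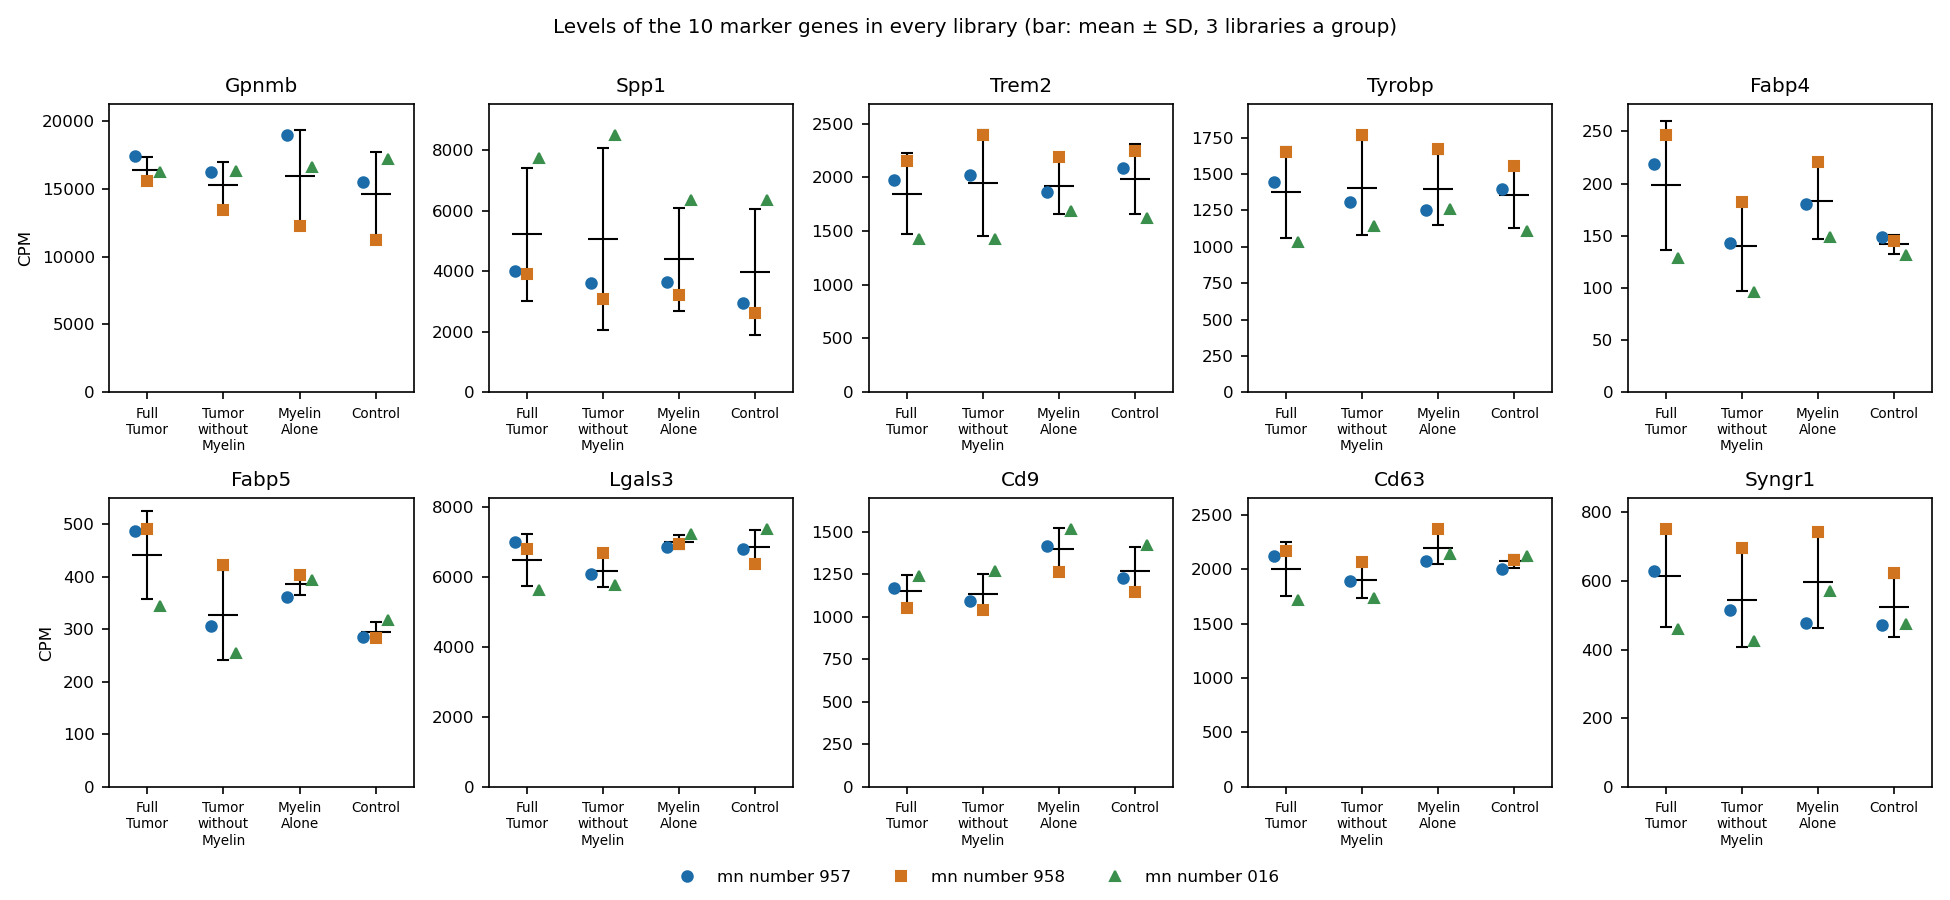
Level in CPM (linear axes from 0) of each of the 10 genes in each of the 12 libraries, by group and mn number, with the mean and SD of the 3 libraries of a group. Spp1 of number 016 stands at 6344 to 8513 CPM in all 4 groups, while Fabp5 is at 344 to 490 CPM in Full Tumor and 283 to 317 CPM in Control.

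TREM2 and TYROBP form the receptor and its signalling adaptor. Trem2 (ENSMUSG00000023992, mm10 chromosome 17, 48346401 to 48354147, plus strand) was at 1971, 2148 and 1422 CPM in Full Tumor, 2023, 2395 and 1423 in Tumor without Myelin, 1868, 2191 and 1687 in Myelin Alone and 2083, 2246 and 1617 in Control, in the order of numbers 957, 958 and 016. Number 016 was lowest and 958 highest in every group, and the groups overlapped in every comparison. With the block, the log2 fold change of Full Tumor over Control was −0.11 (95% interval −0.29 to 0.07, adjusted p = 0.75 in edgeR), and that of Myelin Alone over Control −0.04 (−0.22 to 0.14). With group only the Trem2 intervals were wider, −0.565 to 0.362 for Full Tumor over Control and −0.513 to 0.414 for Myelin Alone over Control.

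Tyrobp (ENSMUSG00000030579, chromosome 7, 30413760 to 30417585, plus strand) was at 1445, 1649 and 1031 CPM in Full Tumor, 1306, 1770 and 1143 in Tumor without Myelin, 1250, 1676 and 1257 in Myelin Alone and 1398, 1558 and 1108 in Control. Its log2 fold change of Full Tumor over Control with the block was 0.01 (−0.19 to 0.21). Adaptor and receptor kept nearly the same proportion throughout, with 1.25 to 1.55 Trem2 counts for each Tyrobp count. Over the 12 libraries their log2 CPM correlated at r = 0.93, and at r = 0.64 once the mean of each mn number was taken off. These points share libraries and depth, so such values describe these samples only.

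Fabp5 encodes an intracellular carrier of fatty acids that is widely expressed in macrophages. Fabp5 (ENSMUSG00000027533, chromosome 3, 10012548 to 10016607, plus strand) was at 487, 490 and 344 CPM in Full Tumor, 306, 421 and 255 in Tumor without Myelin, 361, 402 and 394 in Myelin Alone and 286, 283 and 317 in Control. Every Full Tumor and every Myelin Alone library lay above every Control library. Among all tested genes, 4.59% were higher without overlap in Full Tumor and 3.21% in Myelin Alone. Neither difference passed the test: the log2 fold change was 0.56 ± 0.16 for Full Tumor over Control with the block (SE, 95% interval 0.22 to 0.90, edgeR adjusted p = 0.183) and 0.38 ± 0.16 for Myelin Alone over Control (0.04 to 0.72, edgeR adjusted p = 0.770). Against Tumor without Myelin, Full Tumor stood at 0.44 (0.10 to 0.78, edgeR adjusted p = 1.00).

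Fabp4 encodes the adipocyte fatty acid binding protein, which macrophages also make when they take up lipid. It lies on the same chromosome as Fabp5 (ENSMUSG00000062515, chromosome 3, 10204088 to 10208576, minus strand). Its level was 219, 247 and 129 CPM in Full Tumor, 143, 182 and 96.4 in Tumor without Myelin, 180, 221 and 149 in Myelin Alone and 149, 145 and 132 in Control. The Myelin Alone libraries of Fabp4 all lay above the Control libraries, as held for 3.21% of all tested genes. The closest pair was nearly level, at 149 CPM in Myelin Alone 016 and 148.6 CPM in Control 957. Of the 3 Full Tumor libraries, 1, that of number 016, lay below all of Control. The log2 fold change of Full Tumor over Control with the block was 0.43 (0.11 to 0.74, edgeR adjusted p = 0.293), and that of Myelin Alone over Control 0.34 (0.03 to 0.66, edgeR adjusted p = 0.780).

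Averaging the myelin difference of the tumor groups (Full Tumor over Tumor without Myelin) and of the groups without tumor (Myelin Alone over Control), a contrast chosen after the data were seen, gave 0.42 ± 0.10 for Fabp4 (edgeR adjusted p = 0.247) and 0.41 ± 0.11 for Fabp5 (edgeR adjusted p = 0.320) on the log2 scale with the block. Neither passed. Of all tested genes, 0.112% did. Both genes were higher with myelin in 6 of 6 same-numbered pairs, as were Syngr1 among the members and 3.07% of all tested genes. The pair differences were 0.22 to 0.67 for Fabp5 and 0.18 to 0.62 for Fabp4 on the log2 CPM scale. Whether the myelin difference changed with tumor material was tested as an interaction, which was 0.15 (−0.29 to 0.60) for Fabp4 and 0.06 (−0.42 to 0.54) for Fabp5, with edgeR adjusted p = 1.00 for each.

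The Full Tumor difference of these carriers was near 0 in number 016 and larger in the other numbers. Same-numbered log2 differences of Full Tumor over Control were 0.77, 0.79 and 0.12 for Fabp5 and 0.56, 0.77 and −0.03 for Fabp4, in the order 957, 958 and 016. Without the 4 libraries of number 016, Fabp5 rose by 0.78 ± 0.13 (edgeR adjusted p = 0.0173), Fabp4 by 0.66 ± 0.13 (edgeR adjusted p = 0.0435) and Spp1 by 0.51 ± 0.07 (edgeR adjusted p = 0.00513) in Full Tumor over Control, 3 of 10 members against 1.35% of all genes then tested. That fit kept only numbers 957 and 958, where the differences of the carriers were larger, so its count describes those libraries only. Without number 957 or without number 958 none was called. Leaving out single libraries in turn, with the block, gave no call for Fabp4 or Fabp5 in 12 of 12 fits.

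**Figure D3:**
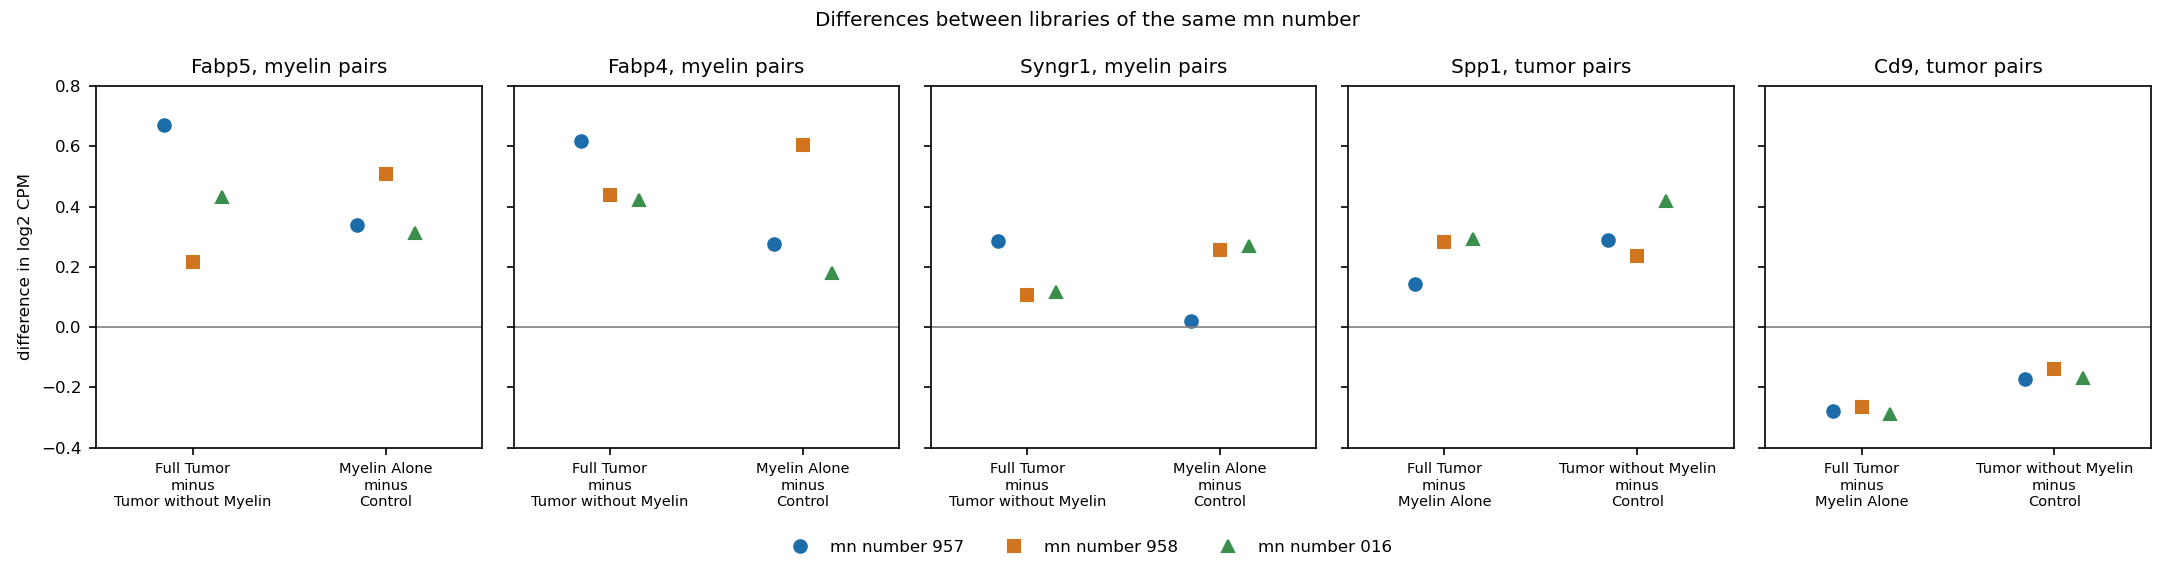
Differences in log2 CPM between libraries of the same mn number. Myelin pairs (Full Tumor minus Tumor without Myelin, and Myelin Alone minus Control) are shown for Fabp5, Fabp4 and Syngr1, and tumor pairs (Full Tumor minus Myelin Alone, and Tumor without Myelin minus Control) for Spp1 and Cd9. All 6 differences lie above 0 for Fabp5, Fabp4, Syngr1 and Spp1 and below 0 for Cd9.

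The fatty acid carriers moved closely together. After the mean of each mn number was taken off, log2 CPM of Fabp4 and Fabp5 correlated at r = 0.94 over the 12 libraries, and each library held 1.83 to 2.66 Fabp5 counts for each Fabp4 count. Lgals3 and Cd63 stood at r = 0.95, Fabp5 and Syngr1 at 0.86, and Spp1 and Trem2 at −0.70. The genes outside the set most like Fabp5 by the same measure, among 8246 genes with a mean of at least 10 CPM, were Id2 (r = 0.97), Sh3glb1 (0.96) and Hilpda (0.90). For Spp1 they were Pdia6, Fuca2 and Surf4 (0.95 to 0.97), for Gpnmb Srprb, Tpp1 and Lamp1 (0.93 to 0.95), and for Trem2 Pex6, Zbtb22 and Acyp1 (0.91 to 0.94). These are descriptions over libraries that share numbers and depth.

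Spp1 encodes osteopontin, a secreted ligand of integrins and CD44. Spp1 (ENSMUSG00000029304, chromosome 5, 104435118 to 104441050, plus strand) was at 4007, 3903 and 7761 CPM in Full Tumor, 3604, 3083 and 8513 in Tumor without Myelin, 3630, 3211 and 6344 in Myelin Alone and 2948, 2617 and 6366 in Control. Number 016 was the highest library in every group, so that the groups overlapped, while within each number both tumor groups lay above Control. It shares 309 exon bases with Gm42793 on the same strand, a gene with 5 to 177 counts a library.

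With group only, the log2 fold change of Spp1 in Full Tumor over Control was 0.39 ± 0.46 (SE). With the mn number as a block it was 0.44 ± 0.09 (0.24 to 0.64), just outside the threshold (edgeR adjusted p = 0.0568; 0.813% of all tested genes passed). Tumor without Myelin over Control gave 0.32 (0.12 to 0.52, edgeR adjusted p = 0.202) and Full Tumor over Myelin Alone 0.24 (0.04 to 0.44, edgeR adjusted p = 0.562). Averaged over the tumor comparisons with and without myelin, again a contrast chosen after the data were seen, Spp1 rose with tumor material by 0.28 ± 0.06 in log2 units when blocked (0.14 to 0.42, edgeR adjusted p = 0.0490), in 6 of 6 same-numbered pairs. Of all tested genes, 4.19% were higher in 6 of 6 such pairs. With group only the adjusted p in edgeR was 1.00.

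Cd9 encodes a tetraspanin, a membrane organiser also found on extracellular vesicles. Cd9 (ENSMUSG00000030342, chromosome 6, 125460266 to 125494791, minus strand) was at 1167, 1053 and 1241 CPM in Full Tumor, 1091, 1041 and 1267 in Tumor without Myelin, 1416, 1264 and 1514 in Myelin Alone and 1229, 1146 and 1424 in Control. Every Full Tumor library lay below every Myelin Alone library, as held for 3.12% of all tested genes, and the log2 fold change was −0.28 ± 0.07 with the block (−0.42 to −0.13, edgeR adjusted p = 0.192). Averaged over the tumor comparisons, Cd9 fell with tumor material by 0.22 ± 0.05 in log2 units (interval −0.32 to −0.12, edgeR adjusted p = 0.0350 with the block, and 0.751 with group only), and was lower in 6 of 6 pairs, as were 3.01% of all tested genes.

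Spp1 and Cd9 were 2 of 10 members called on this average over tumor material with the block, where 2.25% of all tested genes were called, and 0 of 10 with group only, where 0.0745% were. Both calls sat near the threshold. The members were chosen with earlier results of these data known, so their count is a description. With single libraries left out in turn, that of Spp1 held in 3 of 12 fits, without Tumor without Myelin 958, without Control 016 or without Full Tumor 016, and was lost in the other fits (edgeR adjusted p up to 0.147). That of Cd9 held in 1 of 12 fits, without Myelin Alone 957 (edgeR adjusted p up to 0.117 in the others). The log2 differences themselves ranged from 0.22 to 0.32 for Spp1 and from −0.23 to −0.21 for Cd9. The tumor groups also had the higher sums of microglia markers given above, and among these Fcrls was at 83.9 ± 26.8 CPM in Full Tumor, 109 ± 34.8 in Tumor without Myelin, 30.7 ± 4.93 in Myelin Alone and 14.8 ± 6.40 in Control (SD, n = 3 each). On the same average with the block, 5 of 9 tested microglia markers rose, Fcrls, Olfml3, P2ry13 and Tmem119 among them. So did 4 of 10 macrophage markers (Adgre1, Aif1, Cd14 and Fcgr1). The neutrophil marker Mpo and the endothelial marker Vwf fell, each the only call of its list. By sign, 5 of 8 tested neutrophil markers were lower and 3 higher. Of 3 tested endothelial markers, 1 was lower and 2 were higher. With group only Fcrls alone of these was called (edgeR adjusted p = 0.0270). The part of these cells in the values of Spp1 and Cd9 was not tested. In bulk RNA, a change in the mix of cells and a change in RNA per cell cannot be told apart.

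Gpnmb encodes a transmembrane glycoprotein of lysosomes and the cell surface. Gpnmb (ENSMUSG00000029816, chromosome 6, 49036546 to 49070929, plus strand) was at 17401, 15568 and 16217 CPM in Full Tumor, 16198, 13401 and 16311 in Tumor without Myelin, 18965, 12276 and 16574 in Myelin Alone and 15509, 11222 and 17202 in Control. The spread was narrow in Full Tumor (16395 ± 930 CPM) and wider in Control (14644 ± 3083 CPM, SD, n = 3 each), and the groups overlapped. The log2 fold change of Full Tumor over Control with the block was 0.19 (−0.02 to 0.39, edgeR adjusted p = 0.572), made of 0.17, 0.47 and −0.09 in numbers 957, 958 and 016. Myelin Alone over Control gave 0.12 (−0.09 to 0.33, edgeR adjusted p = 0.960).

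Lgals3, which encodes galectin-3, a sugar-binding protein recruited to damaged lysosomes, lies on chromosome 14 (ENSMUSG00000050335, 47367751 to 47386160, plus strand). It was at 7009, 6796 and 5631 CPM in Full Tumor, 6073, 6682 and 5754 in Tumor without Myelin, 6846, 6929 and 7215 in Myelin Alone and 6809, 6372 and 7358 in Control. Within number 016, Full Tumor and Tumor without Myelin lay below Control, with log2 CPM differences of −0.39 and −0.36. In numbers 957 and 958 these differences ran from −0.17 to 0.09. The log2 fold change of Full Tumor over Control with the block was −0.08 (−0.28 to 0.11).

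Cd63 (ENSMUSG00000025351, chromosome 10, 128900989 to 128912822, plus strand), a tetraspanin of late endosomes, was at 2120, 2166 and 1713 CPM in Full Tumor, 1889, 2068 and 1738 in Tumor without Myelin, 2079, 2365 and 2137 in Myelin Alone and 2000, 2086 and 2124 in Control. Its log2 fold change of Full Tumor over Control was −0.06 (−0.24 to 0.13). It varied over the libraries together with Lgals3, as the correlation above gives. Syngr1 (ENSMUSG00000022415, chromosome 15, 80091334 to 80119501, plus strand) was at 629, 751 and 460 CPM in Full Tumor, 516, 697 and 424 in Tumor without Myelin, 477, 744 and 571 in Myelin Alone and 471, 624 and 474 in Control. With the block, Syngr1 stood at 0.22 (−0.04 to 0.48) for Full Tumor over Control, 0.19 (−0.07 to 0.45) for Myelin Alone over Control and 0.18 (−0.08 to 0.43) for Full Tumor over Tumor without Myelin, and its groups overlapped. Its myelin pairs differed by 0.02 to 0.29 in log2 CPM, all 6 above 0, and their average in the blocked fit was 0.18 ± 0.08 (edgeR adjusted p = 0.702). Rpl3, a ribosomal protein gene with 4658 to 7870 counts, overlaps it on the opposite strand without shared exon bases.

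**Figure D4:**
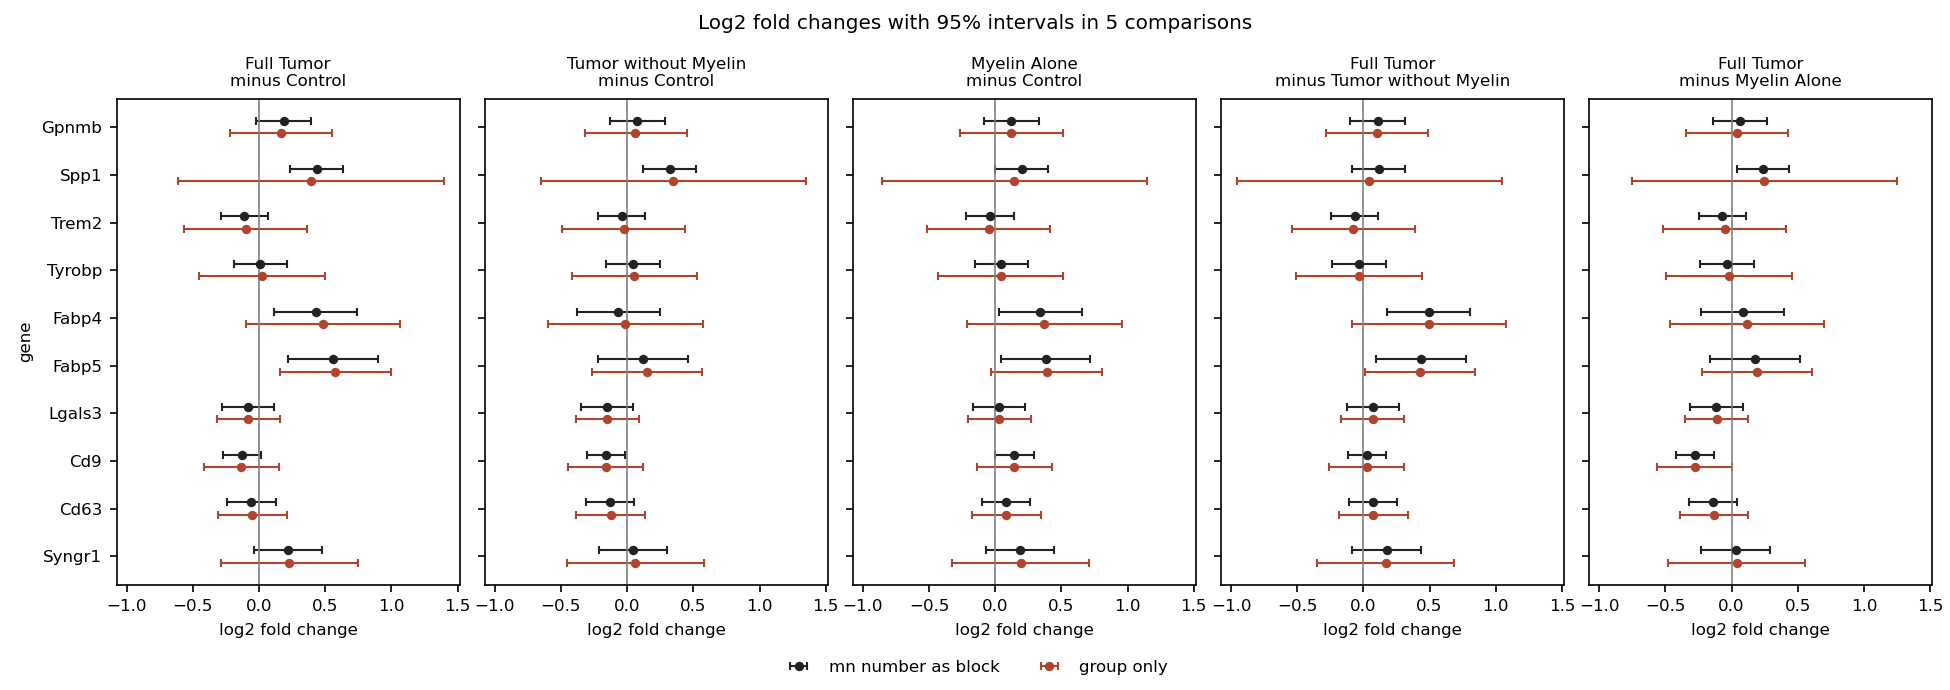
Log2 fold changes with 95% intervals of the 10 genes in the 5 comparisons between groups, with the mn number as a block (black) and with group only (red). The interval of Spp1 in Full Tumor minus Control narrows to 0.24 to 0.64 with the block, and no gene passed the adjusted threshold in either fit.

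Across the set, 6 of 10 members had a positive log2 fold change in Full Tumor over Control with the block and 9 of 10 in Myelin Alone over Control. Of the 13414 tested genes, 6824 and 6956 did. The medians were 0.10 and 0.13, against 0.005 and 0.01 over all tested genes. Several members vary together over the libraries, as the correlations above give, so these are not 10 independent signs. Beside the values of Myelin Alone over Control, 10 neutrophil markers summed to 23.2, 25.3 and 136 CPM in Myelin Alone and 38.9, 87.6 and 282 CPM in Control (numbers 957, 958 and 016), with 8 of 8 tested lower and none called. Their part in these values was not tested. In Tumor without Myelin over Control 5 of 10 members were positive, with a median of 0.001, as were 6779 of the 13414 tested genes. With the block, unadjusted p in edgeR was under 0.05 for 3 members in Full Tumor over Control, where 9.83% of all tested genes reached it. The counts were 4 in Myelin Alone over Control (6.04%) and 2 in Tumor without Myelin over Control (9.48%). With group only they were 1 (4.17% of all tested genes), 0 (2.08%) and 0 (4.09%). These comparisons share the Control libraries. With group only, edgeR called 0 of 13414 genes in each of the 5 comparisons, with unadjusted p under 0.05 for 1.2% to 4.17% of genes. DESeq2, with group only and its own filter, called 43 genes in Full Tumor over Control, 52 in Tumor without Myelin over Control, 7 in Myelin Alone over Control, 1 in Full Tumor over Tumor without Myelin and 13 in Full Tumor over Myelin Alone, none of them a member, and limma-voom called 0.

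Most of these genes differed between the mn numbers. Of the 10, 7 differed between the 3 numbers (Gpnmb, Spp1, Trem2, Tyrobp, Fabp4, Cd9 and Syngr1), against 34.9% of all tested genes in edgeR. Spp1 averaged 7246 ± 1074 CPM in number 016, 3547 ± 440 in 957 and 3204 ± 532 in 958 (SD, n = 4 each; edgeR adjusted p = 1.30e-05). Trem2 went the other way, with 1537 ± 136 CPM in 016, 1986 ± 90.9 in 957 and 2245 ± 108 in 958 (edgeR adjusted p = 0.000690), and no library of 1 number overlapped those of another. Fabp5, Lgals3 and Cd63 did not pass. The number took 89.0% of the variance of Spp1 and 89.3% of that of Trem2, where the median gene had 42.6%, and the group 8.36% and 2.61%. For 4 of the 10 the group took the larger share, with 55.1% against 14.6% for the number in Fabp5, 52.5% against 45.1% in Cd9, 36.7% against 4.52% in Lgals3 and 36.3% against 32.4% in Cd63. The median gene had 17.1% for the group. By degrees of freedom alone the number would take 18.18%, the group 27.27% and the rest 54.55%. In Lgals3 the rest took 58.8% and in Cd63 31.2%. Summed proliferation markers were 811 to 1368 CPM in number 016 and 455 to 766 CPM in the others. The part of proliferation in these differences was not tested.

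Of 14 genes of the TREM2 pathway, all tested, 3 were higher in Full Tumor over Control with the block and 0 lower (0.813% of all tested genes were called), with a median log2 fold change of 0.21 for the list. With group only, 0 of 14 were called in each comparison. This list and those that follow were chosen with earlier results of these data known, so their counts beside the share of all genes are descriptions only. Ms4a4a, a membrane protein whose human counterpart is linked to soluble TREM2, was at 17.5 ± 10.5 CPM in Full Tumor, 14.4 ± 7.49 in Tumor without Myelin, 1.87 ± 1.22 in Myelin Alone and 2.61 ± 2.13 in Control (SD, n = 3 each), and rose by 3.00 ± 0.41 on the log2 scale in Full Tumor over Control (edgeR adjusted p = 0.00664). Ms4a6d rose by 0.76 ± 0.15 (edgeR adjusted p = 0.0437). Inpp5d, the phosphatase SHIP1 that dampens signalling through TYROBP, rose by 0.62 ± 0.13 (edgeR adjusted p = 0.0487). No other gene of the list, Syk included, was called in Full Tumor over Control. In Tumor without Myelin over Control Ms4a4a and Inpp5d rose, where 0.745% of all tested genes were called. Ms4a4a also rose in Full Tumor over Myelin Alone, where 0.112% were. In Myelin Alone over Control 0 of 14 were called. The higher microglia marker sums of the tumor groups, given above, stand beside these genes, and their part was not tested.

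Of 24 other genes of lipid-laden and phagocytic macrophages, 4 rose and 2 fell in Full Tumor over Control with the block, where 0.813% of all tested genes were called, with a median log2 fold change of 0.16. With group only, 0 of 24 were called. Apoe, an apolipoprotein, rose by 0.77 ± 0.13 (edgeR adjusted p = 0.0174). Plin2, the coat of lipid droplets, was at 3064 ± 358 CPM in Full Tumor, 2527 ± 337 in Tumor without Myelin, 2722 ± 352 in Myelin Alone and 2223 ± 373 in Control (SD, n = 3 each), and rose by 0.47 ± 0.07 in Full Tumor over Control (edgeR adjusted p = 0.00976). Ctsl, a lysosomal protease, rose by 0.47 ± 0.09 (edgeR adjusted p = 0.0374). Axl, which helps to clear apoptotic cells, rose by 0.80 ± 0.15 (edgeR adjusted p = 0.0373).

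A pair of genes of the same list went the opposite way. Itgax, the integrin chain CD11c, fell by 0.83 ± 0.15 (edgeR adjusted p = 0.0248). Mmp12, macrophage elastase, fell by 0.76 ± 0.10 (edgeR adjusted p = 0.00474) in Full Tumor over Control. Tumor without Myelin over Control gave 2 higher (Apoe and Axl) and 1 lower (Mmp12), where 0.745% of all tested genes were called. Myelin Alone over Control gave 0 in either direction. The higher microglia marker sums of the tumor groups, 739 to 1146 CPM against 417 to 687 CPM in the groups without tumor material, stand beside these genes as well, and their part was not tested.

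Of 12 receptors of osteopontin, galectin-3 or GPNMB, 1 was called in Tumor without Myelin over Control with the block. Of all tested genes, 0.745% were. The receptor was Itgav, the αv integrin chain, which rose by 0.73 ± 0.15 (edgeR adjusted p = 0.0490). None was called in Full Tumor over Control, where Mertk, a receptor for apoptotic cells, stood closest at 1.49 ± 0.30 (edgeR adjusted p = 0.0509). Itgav and Itga9 rose with the block on the average over tumor material, a contrast chosen after the data were seen. These were 2 of 12, where 2.25% of all tested genes were called. Of 27 relatives of the members, 21 were tested and 0 were called in any of the 5 comparisons. On the average over tumor material Lgals9 (1.00 ± 0.18), Lgals3bp (1.04 ± 0.22) and Tspan3 (0.31 ± 0.06) rose with the block, 3 of 21 against the same 2.25% (edgeR adjusted p of 0.0138 to 0.0364). Fabp3, a relative of Fabp4 and Fabp5, was at 15.2 ± 1.33 CPM in Full Tumor, 10.8 ± 1.64 in Tumor without Myelin, 11.8 ± 1.02 in Myelin Alone and 8.50 ± 1.13 in Control (SD, n = 3 each), without a call.

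Of 13 transcription factors known to drive members, 0 were called in the 5 comparisons. Nr1h3, which encodes LXRα, rose by 0.65 ± 0.13 and Tfec, a relative of MITF, fell by 0.80 ± 0.16 on the average over tumor material with the block (edgeR adjusted p = 0.0305 and 0.0245), 2 of 13 against 2.25% of all tested genes. Pparg, which encodes PPARγ, a factor that acts on Fabp4, was at 67.4 ± 18.4 CPM in Full Tumor, 80.6 ± 23.9 in Tumor without Myelin, 72.7 ± 8.44 in Myelin Alone and 99.7 ± 5.01 in Control (SD, n = 3 each). All Full Tumor and all Myelin Alone libraries lay below Control for Pparg, as did 3.51% and 2.57% of all tested genes. Neither difference passed: in the blocked fit the log2 fold change was −0.60 for Full Tumor (adjusted p = 0.209, edgeR) and −0.47 for Myelin Alone (adjusted p = 0.704, edgeR). With group only, none of the genes named from these lists of pathway genes, relatives, receptors and factors was called.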

How the data were processed

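The authors deposited raw counts per gene, whole numbers without normalization, on mm10 per the submitters' processing notes. Not given in the sources used here were the aligner, the counter and its use of strand, so antisense or near-identical genes may share reads. Per the labels' protocols, RNA of small sorted samples was reverse transcribed with oligo-dT and template switching. All else was computed here: CPM on TMM-scaled totals, and edgeR's quasi-likelihood test (edgeR 4.0.16, R 4.3.3; TMM, filterByExpr, two-sided, Benjamini-Hochberg over 13414 genes, threshold 0.05) on 12 libraries with group as the only term, which gave the main results. The filtered genes held 99.9% of the counts. Floors of 3 counts cover counting error only. DESeq2 1.42.0, limma-voom (limma 3.58.1), other scalings and leave-outs were alternatives. The procedure was also run on simulated data, whose outcome is not given here and is no support for the calls above.

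The groups share mn numbers. Deviations from group means correlated above 0.1 across genes in 18 of 18 same-numbered pairs (0.120 to 0.631), and 11 of 12 libraries correlated best with their own number, so the numbers were taken as pairs and blocked values are given. No 2 libraries of a group were duplicates. The standard error of a log2 fold change is its size over the square root of F.

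Members and gene lists were chosen with earlier results of these data known. All members are named. From the other lists, cell type markers apart, genes called in either fit are named or, where none was, those with the lowest unadjusted p with the block. Fabp3 and Pparg were among these. Transcript lengths are of the longest principal protein-coding transcript in GENCODE M21.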

Additional observations from a re-analysis of the deposited data

How the results depend on the processing

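With group only, 0 of 10 members were called in each of the 5 comparisons, the interaction and the test over 4 groups, and in each of the 5 comparisons with DESeq2, limma-voom, median-of-ratios factors, library totals or only the groups compared. The test over 4 groups was not run with DESeq2 or limma-voom. With the replicate block, members called stayed at 0 in these tests. Calls over all genes went to 109 for Full Tumor over Control (0 with group only) and 100 for Tumor without Myelin over Control (0). They went to 15 for Full Tumor over Myelin Alone (0), 5 for Myelin Alone over Control (0) and 134 over the 4 groups (0). They stayed at 0 for Full Tumor over Tumor without Myelin and for the interaction. The average over tumor material gave 302 genes with the block (10 with group only, 174 with DESeq2) and that over myelin 15 (0, and 16 with DESeq2). No filter gave, with group only, 48 and 2 genes for these averages, 3 for Full Tumor over Control, 1 for Tumor without Myelin over Control and 6 over the 4 groups. Of members, the average over tumor material gave 2 with the block, 1 with library totals and the block (Cd9) and 2 with no filter and the block. With no filter and the block, Full Tumor over Control and the test over 4 groups gave 1 each (Spp1). Without single libraries, Full Tumor over Control gave 0 to 1 and the average over tumor material 0 to 1 members. Without all 4 libraries of a number these were 0 to 3 and 0 to 1, the test over 4 groups 0 to 1, and the test between numbers 3 to 7, with 3 each without 958 or 016. Without single libraries the test between numbers gave 6 to 8.

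Directions turned by at least their standard error in 7 of 2850 member values under alternatives, all leave-outs. Fabp5 in Tumor without Myelin over Control stood at −0.08 without Tumor without Myelin 958, at −0.058 with the block too and at −0.122 without number 958, up to 0.302 over single libraries and 0.345 without number 016. Spp1 in that comparison ran from −0.25, without Tumor without Myelin 016 with group only, to 0.856. Without number 016, Lgals3 (0.069) and Cd63 (0.071) turned in Full Tumor over Control and Lgals3 (0.005) in Full Tumor over Myelin Alone. In all, 282 of the 2850 values changed sign, those 7 included. The rest of the 282 moved by less than their standard error and were called in neither fit. Of these, 21 were outside the leave-outs. The causes were not tested. At 3 libraries a group, edgeR's biological coefficient of variation came to 0.414 (0.266 when blocked).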
